A study of Rattus norvegicus with 6 samples.

Results

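The myelin protein genes described here are Mbp, Mog, Mag, Mobp, Cnp, Cldn11, Mal, Ugt8 and Ermn. They were chosen by name, as well known genes of the compact and non-compact myelin that oligodendrocytes make. No rule on their values was used, but earlier results of these data were known when they were chosen. The arrays carried 14 probes for these 9 genes, out of 30367 probes for 17338 named genes, and all 14 probes were well above background on all 6 arrays. Oligodendrocytes wrap axons of the central nervous system in many layers of their own membrane. That membrane, myelin, is rich in galactolipids and in a small number of very abundant proteins, and it speeds conduction and supports the axon. White matter is known to be sensitive to a lasting shortage of blood flow, and the rat with both carotid arteries tied is a widely used model of that state.

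Each array held labelled RNA of the hippocampus of male Wistar rats. The 5 operated groups were taken at day 21, day 35, day 45, day 55 and day 70 after permanent bilateral common carotid artery occlusion (BCCAo), in which both vessels are doubly ligated under isoflurane, and the control group was set against them. The labels give ages of 13, 14, 15, 16 and 17 weeks for days 21, 35, 45, 55 and 70 and of 12 weeks for the control, and these steps do not match the days. The RNA was pooled, and the sources used here do not state how many rats made up a pool or whether control rats had a sham operation. There was 1 array per group, so each difference compares 1 pool with another, carries no error between animals and has no p-value. Precision is limited by the small number of arrays. The control, day 21 and day 35 arrays shared one slide and the day 45, 55 and 70 arrays the other, so the later days and the slide cannot be told apart. All 5 differences use the same control array. In bulk tissue, fewer cells of a type and less RNA per cell cannot be told apart.

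Values are processed spot intensities. A difference is the log2 value of an operated group minus that of the control group, after each array was scaled to its own 75th percentile, which lay between 1243 and 1504 intensity units. The day 35 array was the brightest as a whole, so its raw intensities run high before scaling. The SD between spots was taken from probes printed 10 times whose level lay within the range of the unsaturated member probes. For the 968 such probes on the control array the median SD was 0.069 log2 units, and on the other arrays it was 0.047 to 0.059. Spots of this precision give an SD of 0.078 for a difference of 2 single spots. This technical spread was taken within arrays, so it leaves out technical differences between arrays, which every difference from the control also holds. It is therefore not the full technical error of a difference, and it says nothing about the spread between rats.

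Each probe is 60 bases long, and Opalin, Sox10, Olig1 and Olig2, other genes that mark the oligodendrocyte lineage, were likewise well above background on all 6 arrays. The 4 probes printed here read Mobp, Cnp, Cldn11 and Ugt8, the genes with their lowest array at day 45 or day 55. They are printed from the array files, with positions in genome build rn4. The Mobp probe lies on the plus strand at chr8:125135770-125135829, the Cnp probe on the plus strand at chr10:89524880-89524939, the Cldn11 probe on the minus strand at chr2:116627458-116627517 and the Ugt8 probe on the minus strand at chr2:222979766-222979825. No capitals are used, since no base within a probe is singled out, and whether a probe lies in an exon or an untranslated region was not looked up.
Mobp probe: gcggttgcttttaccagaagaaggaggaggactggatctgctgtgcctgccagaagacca
Cnp probe: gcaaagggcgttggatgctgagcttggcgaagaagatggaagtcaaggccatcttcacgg
Cldn11 probe: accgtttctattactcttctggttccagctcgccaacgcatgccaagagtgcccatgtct
Ugt8 probe: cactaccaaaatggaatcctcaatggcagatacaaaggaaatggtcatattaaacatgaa

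The myelin protein genes as a group stood highest 21 days after occlusion and close to the control from day 45 on. At day 21, 7 of the 9 genes were above the control, with Mal highest, and the median difference was 0.33 log2 units. At day 35 the same number, 7 of 9, were above it, with a median of 0.11. The medians at days 45, 55 and 70 were 0.02, 0.02 and 0.04, with 6, 5 and 5 of the 9 genes above the control. The sign of the day 55 and day 70 medians is not settled, since it turned to −0.007 at day 55 with normexp background correction and to −0.006 at day 70 in the authors' deposited table. Over all genes measured, the median difference was −0.06, −0.04, −0.04, −0.04 and −0.02 at the 5 days, and 40.1, 41.9, 41.3, 42.2 and 44.4% of genes were above the control.

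A difference of 1.3-fold, 0.379 on the log2 scale, was used as a fixed mark of size. At day 21, 4 of the 9 genes, Mal, Mobp, Mag and Cldn11, were higher by 1.3-fold or more, against 11.1% of all genes, and 1, Mbp, was lower by that much, against 10.8%. The count of 5 was 3 with normexp and 2 in the authors' deposited table. Mag and Cldn11 lay just inside the mark, at 0.385 and 0.382, and Ugt8 just outside it, at 0.333. At day 35 none of the 9 was past 1.3-fold in either direction, while 2.8% of all genes were higher and 8.25% lower by that much. At day 45, 2 genes, Ugt8 and Mobp, were lower past the mark, and 15.7% of all genes were lower by that much, while no member was higher past it, against 1.79% of all genes. At day 55, 1 gene, Mal, was higher past it (3.44% of all genes) and 1, Cnp, was lower (13.6%). At day 70, 1 gene, Mbp, was lower past it (14.2%) and none was higher (2.18%), and in the authors' deposited table or under quantile normalization no member was past the mark at day 70. No member differed from the control by 2-fold on any day, while 3.96, 0.799, 3.92, 3.71 and 4.57% of all genes did at days 21, 35, 45, 55 and 70.

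**Figure D1:**
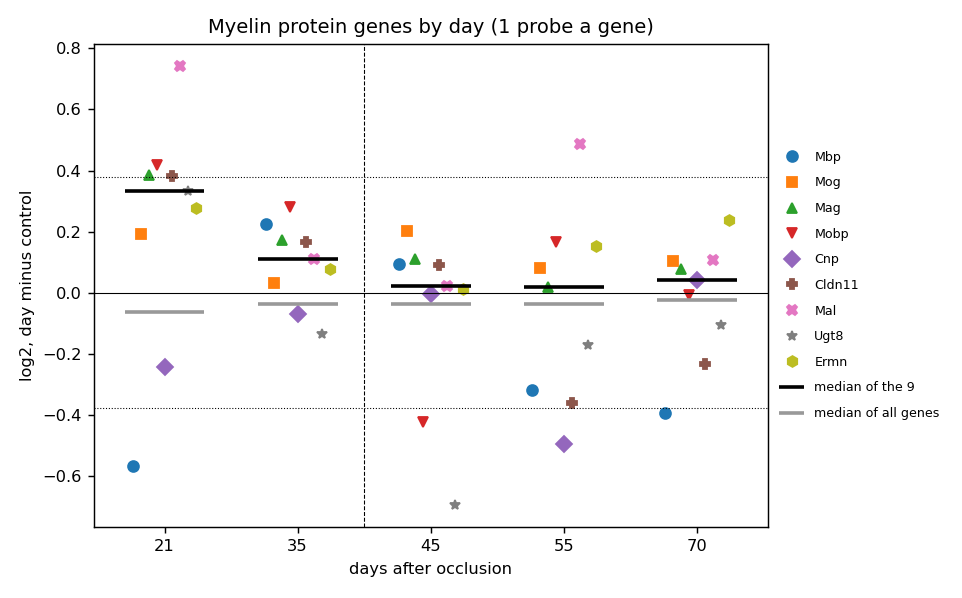
Difference of each of the 9 myelin protein genes from the control, in log2 units on the vertical axis, at each day after occlusion on the horizontal axis, with 1 probe per gene. Black bars are the medians of the 9 genes and grey bars those of all genes measured, dotted lines mark 1.3-fold, and the dashed line separates the days on the control's slide from those on the other. At day 21 most members lie above 0 and Mbp and Cnp below it, and from day 45 on the black bars lie near 0.

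Mbp and Mobp encode basic proteins on the inner, cytoplasmic side of the membrane. Myelin basic protein holds the cytoplasmic faces of neighbouring myelin layers together. The Mbp probe at chr18:79057264-79057323 was saturated on all 6 arrays, at 66058 intensity units for the control and 67427, 65916, 64707, 64300.4 and 64329 for days 21, 35, 45, 55 and 70, so it gives no difference in either direction. A second Mbp probe, at chr18:79026442-79026501 and matched to a different RefSeq transcript of the gene, was in range and is the one counted above. It gave 343.6 intensity units for the control and 219.7, 460.3, 370.4, 269.8 and 276.5 at the 5 days. The day 21 array was lowest and the day 35 array highest. Its differences from the control were −0.57, 0.22, 0.09, −0.32 and −0.40 log2 units, and this probe alone says nothing of the transcripts read by the saturated one.

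Myelin-associated oligodendrocyte basic protein, the product of Mobp, is a small basic protein of compact myelin. Its brightest probe, the one printed above, read 10308 units for the control and 13042, 14360, 7758, 11335 and 10850 units for days 21, 35, 45, 55 and 70. Scaled, the day 21 and 35 arrays were highest, at 0.42 and 0.28 above the control, and the day 45 array was lowest, at −0.43, with 0.17 and −0.01 at days 55 and 70. The other Mobp probes did not share the low value of day 45. At chr8:125136405-125136464 the differences were 0.37, 0.31, 0.19, 0.18 and 0.08, and at chr8:125143743-125143802 they were 0.11, 0.15, 0.16, 0.09 and 0.09. All 3 probes were thus above the control at days 21, 35 and 55, and at day 45 they parted.

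Mog and Mag encode cell adhesion proteins of the immunoglobulin family. Myelin oligodendrocyte glycoprotein sits on the outermost face of the sheath. Its probe, at chr20:1611776-1611835, gave 2840 intensity units for the control and 3071, 3327, 3304, 2944 and 3232 at days 21, 35, 45, 55 and 70. After scaling, all 5 days lay slightly above the control, by 0.19, 0.03, 0.20, 0.08 and 0.10, although day 35 turned to −0.027 with normexp and −0.045 in the authors' deposited table. Mog had the narrowest range over the arrays of the 9 genes, 0.20 log2 units, and it too was read by 1 probe only.

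Myelin-associated glycoprotein, the product of Mag, lies on the innermost membrane of the sheath, facing the axon. The brighter Mag probe, at chr1:85954601-85954660, read 13112 units for the control and 16220, 16934, 14303, 13018 and 14659 units for days 21, 35, 45, 55 and 70. Its differences were 0.39, 0.17, 0.11, 0.02 and 0.08, so as scaled here day 21 was highest and the control lowest. Day 55 turned to −0.007 with normexp and −0.010 without scaling, and day 70 to −0.019 in the authors' deposited table. The second Mag probe, at chr1:85954517-85954576, lies close to the first without overlapping it and was printed 10 times on each array. It averaged 1038 units for day 21 and 955.2 for the control, with SDs between spots of 31.7 and 64.9. Its difference was 0.20 at day 21 and −0.10, −0.07, −0.07 and −0.03 at the later days. All 10 spots of day 21, from −0.34 to −0.19 on the scaled log2 scale, were above all 10 control spots, from −0.72 to −0.38, while the spots of every later day overlapped those of the control. As scaled here both probes put day 21 highest, and at the later days their differences from the control had opposite signs. With scaling to the array median both were above the control at days 45, 55 and 70, at 0.232, 0.099 and 0.175 for the brighter probe and 0.049, 0.008 and 0.064 for the other, and without scaling both were above it at day 35.

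Ermn encodes ermin, a cytoskeletal protein of mature oligodendrocytes that binds actin. The probe with 10 spots, at chr3:39821050-39821109, averaged 4464 intensity units for the control and 5126, 5402, 4548, 4861 and 5580 at days 21, 35, 45, 55 and 70, with SDs between spots of 150 to 267. The differences were 0.28, 0.08, 0.01, 0.15 and 0.24. At day 21 the spots ran from 1.96 to 2.10 on the scaled log2 scale and at day 70 from 1.90 to 2.09, above all control spots, which ran from 1.67 to 1.82. At days 35, 45 and 55 the spots overlapped those of the control. The second Ermn probe, at chr3:39823067-39823126, gave 0.19, −0.03, −0.09, −0.07 and 0.15, so both probes had their highest values at days 21 and 70. Ermn at day 45 was on either side of the control by setting, with −0.021 in the authors' deposited table.

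**Figure D2:**
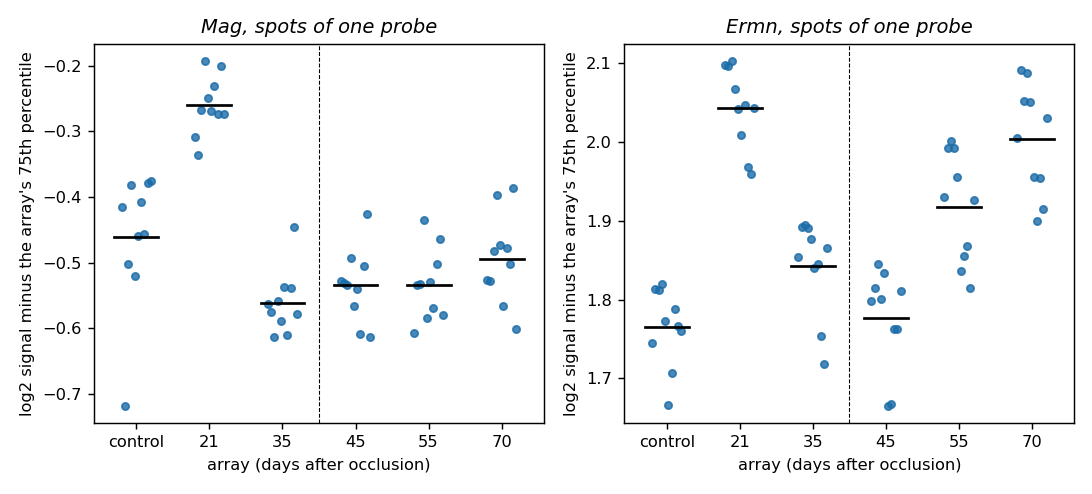
Scaled log2 signal (log2 signal minus the array's 75th percentile) of each of the 10 spots of the Mag probe (left) and the Ermn probe (right), on the control array and by days after occlusion, with black bars at the mean of the spots and a dashed line between the 2 slides. Spots of 1 array share 1 RNA pool, so the scatter is technical. The day 21 spots of both genes, and the day 70 spots of Ermn, lie above all control spots.

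Mal encodes a proteolipid of lipid-rich membrane domains that takes part in sorting proteins to myelin. Its probe, at chr3:115167515-115167574, read 1264 units for the control and 2003, 1564, 1297, 1734 and 1440 units for days 21, 35, 45, 55 and 70. Day 21 stood highest and day 55 next, and the control was lowest. Mal was 0.74 log2 units, or 1.67-fold, above the control at day 21 and 0.11, 0.02, 0.49 and 0.11 above it at the later days. A single probe reads Mal, and no second probe was there to compare.

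Cldn11 encodes claudin 11, the tight junction protein that seals neighbouring turns of central myelin. Its probe, printed above, gave 599.2 intensity units for the control and 739.4, 771.0, 645.3, 456.8 and 538.9 at days 21, 35, 45, 55 and 70. The early days were above the control and days 55 and 70 below it. The differences were 0.38, 0.17, 0.09, −0.36 and −0.24. Cldn11 had no second probe to compare.

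Cnp encodes the enzyme 2′,3′-cyclic nucleotide 3′-phosphodiesterase, which keeps cytoplasmic channels within myelin open. Its probe read 2152 units for the control and 1723, 2350, 2170, 1496 and 2343 units for days 21, 35, 45, 55 and 70. Days 55 and 21 were low, at −0.49 and −0.24 against the control, and days 35, 45 and 70 were near it, at −0.07, −0.00 and 0.04. Cnp and Mbp were thus the members below the control at day 21. Only 1 probe read Cnp, so its low values could not be set beside those of another probe.

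Ugt8 encodes the galactosyltransferase that makes galactosylceramide, the leading glycolipid of myelin, and so is an enzyme rather than a structural protein. Its probe gave 1100 intensity units for the control and 1312, 1146, 686.4, 957.3 and 1081 at days 21, 35, 45, 55 and 70. Day 21 was highest and day 45 lowest, a span of 1.03 log2 units, or 2.04-fold, the widest of the 9 genes. Against the control the differences were 0.33, −0.14, −0.70, −0.17 and −0.11. A single probe reads Ugt8, so its low value at day 45 could not be set beside that of another probe.

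**Figure D3:**
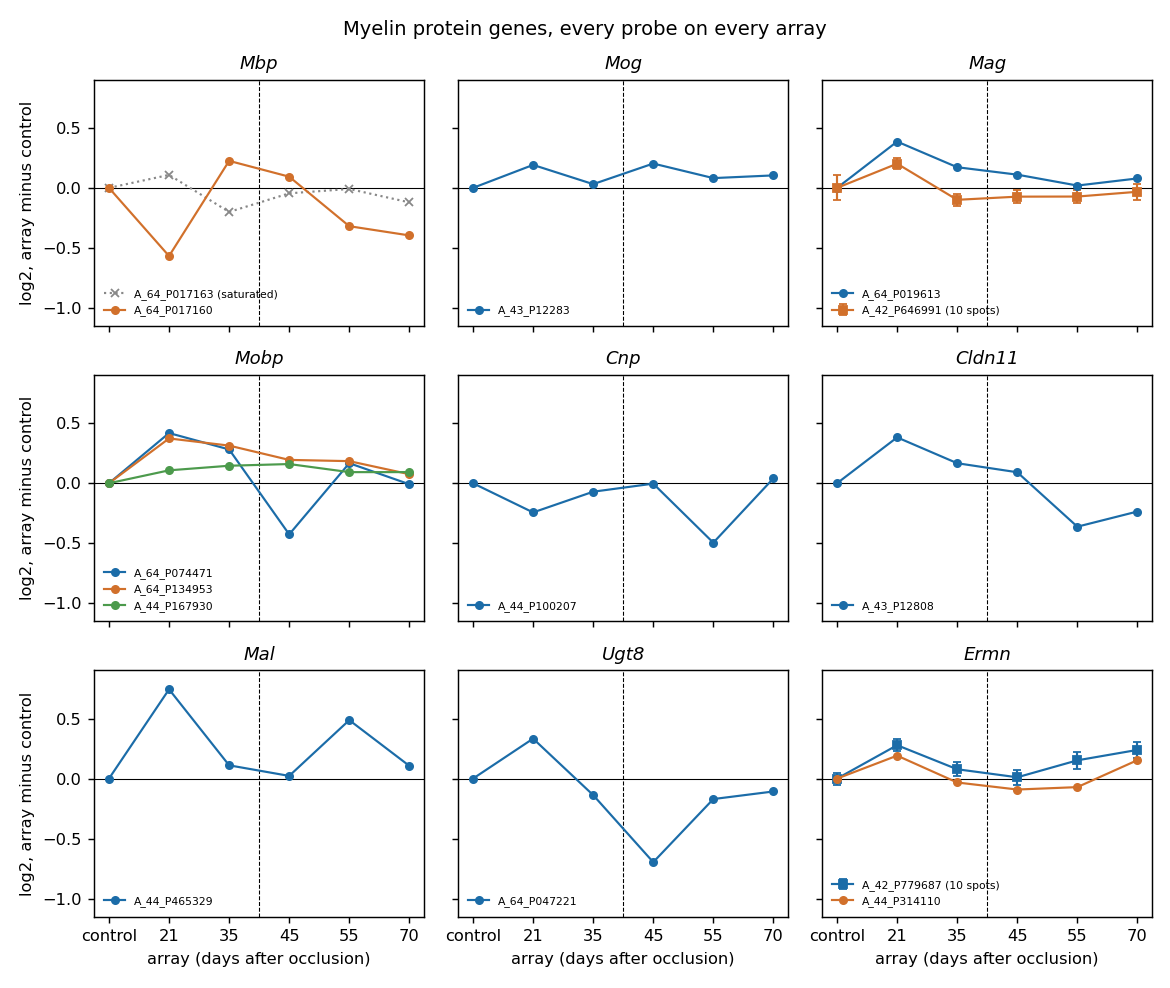
Difference of every probe of the 9 myelin protein genes from the control array, in log2 units on the vertical axis, with the control and the days after occlusion on the horizontal axis. Bars on the probes with 10 spots are SDs between spots of that array, the dotted grey line is the saturated Mbp probe, and the dashed vertical line separates the 2 slides. Mal peaks at day 21 with a second high value at day 55, and Ugt8 and 1 of 3 Mobp probes are lowest at day 45.

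The members did not share a single time course. As scaled here, the day 21 array was highest for 6 of the 9 genes, Mag, Mobp, Cldn11, Mal, Ugt8 and Ermn, and the control array was lowest for 4, Mog, Mag, Mal and Ermn, of which Mog, Mag and Ermn had a day on the other side of the control under another setting. Days 45 and 55 were lowest for 2 genes each, day 45 for Mobp and Ugt8 and day 55 for Cnp and Cldn11. The shares of all genes with each array as highest or lowest are not given here. These counts therefore describe the 9 genes and do not set them apart from other genes. The median range over the 6 arrays was 0.74 log2 units for the 9 genes, and 0.39 for the 12285 genes well above background and unsaturated on all arrays. The value for the 9 genes depends on the probe counted for each. Mobp entered at 0.84, while its other probes ranged over 0.37 and 0.16, and Mbp entered at 0.79 from its much dimmer, unsaturated probe.

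Among the 36 pairs of members, with 1 probe per gene, 22 had a Pearson correlation over the 6 arrays above 0 and the median was 0.26. The highest, 0.87, was between the brightest Mobp probe and Ugt8, and the lowest, −0.885, between Mbp and Ermn. The other Mobp probes correlated with Ugt8 at 0.23 and −0.47, so the high value holds for 1 Mobp probe only. These are descriptions over 6 arrays on 2 slides that share their scaling, with no p-value. Different probes of the same gene correlated at 0.75 for Mag, 0.81 for Ermn and −0.13, 0.53 and 0.69 for the 3 pairs of Mobp probes, so in Mobp the brightest probe went its own way.

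Comparisons within a slide leave the slide out. On the first slide, day 35 minus day 21 was −0.63 for Mal, −0.47 for Ugt8, −0.22 for Cldn11, −0.21 for Mag and −0.20 for Ermn. Mbp stood 0.79 and Cnp 0.17 higher at day 35. The Mbp values of this paragraph are those of its unsaturated probe alone, and they say nothing of the transcripts read by the saturated probe. On the second slide, day 55 minus day 45 was 0.59 for the brightest Mobp probe, 0.53 for Ugt8 and 0.46 for Mal, and −0.49 for Cnp, −0.45 for Cldn11 and −0.41 for Mbp. Day 70 minus day 45 was 0.59 for Ugt8, 0.42 for that Mobp probe and 0.23 for Ermn, and −0.49 for Mbp and −0.33 for Cldn11. The late arrays therefore differed among themselves on 1 slide, with Ugt8, Mal and the brightest Mobp probe low and Cldn11, Mbp and Cnp high at day 45 relative to day 55.

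Other genes of myelin and of mature oligodendrocytes were mostly above the control at day 21 as well. Of 32 such genes measured, 28 were above it, 8 by 1.3-fold or more, 1 was lower past that mark, and the median was 0.15. Among all genes at day 21, 40.1% were above the control, 11.1% were higher past the mark and 10.8% lower. The highest differences of the list, both at day 21, were 0.79 for Padi2, which encodes an enzyme that citrullinates myelin basic protein and other proteins, and 0.68 for Enpp2, which encodes autotaxin. The lowest were −0.75 at day 70 for Enpp6, which encodes a choline phosphodiesterase of newly forming oligodendrocytes, and −0.52 at day 21 for Tppp, a microtubule protein of oligodendrocytes. Enpp6 differed by 0.11 at day 21 and by −0.63 and −0.74 at days 45 and 55. At day 35, 21 of the 32 were above the control, at day 45 17, at day 55 15 and at day 70 25, with medians of 0.11, 0.02, −0.01 and 0.10.

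The genes of myelin lipid synthesis lay on both sides of the control, with medians near 0 whose sign at days 35 to 70 varied with the setting. At day 21, 8 of 18 measured were above it and the median was −0.04, and the medians of the later days were −0.02, −0.03, 0.01 and 0.01. Sptlc2, a subunit of the enzyme that starts sphingolipid synthesis, stood at −0.53 at day 21, and Elovl7, which lengthens fatty acids, at 0.41. Fa2h, which makes the 2-hydroxy fatty acids of myelin galactolipids, differed by −0.04 at day 21 and −0.32 at day 45.

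Junction genes had medians of 0.03, 0.03, −0.04, −0.06 and 0.02 over 14 genes at the 5 days, and the sign of each varied with the setting. Cadm4, an adhesion molecule between glia and axon, had the lowest values, at −0.88, −0.05, −0.89, −0.88 and −0.87, so day 35 and the control stood apart from the other 4 arrays. Gjb1, which encodes the gap junction protein connexin 32, was highest, at 0.49 at day 35. Among 12 transcription regulators of the lineage the medians were 0.00, 0.06, 0.01, 0.03 and 0.03. Sox10, which oligodendrocytes keep throughout their life, stayed within 0.09 of the control on every day, Olig2 was 0.35 above it at day 21, and Myrf, which drives myelin genes, was 0.41 above it at day 45 and −0.23 from it at day 21.

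Genes of oligodendrocyte precursors were mostly below the control after day 21, but the sign of their median depended on the scaling at days 35, 45 and 70, with 0.108 at day 35 without scaling and 0.030 and 0.009 at days 45 and 70 with scaling to the array median. Of 16 genes, 9 were above it at day 21, while 13 lay below it at day 35, 14 at day 45, 14 at day 55 and 12 at day 70. The medians of the list at the 5 days, as scaled here, were 0.03, −0.09, −0.09, −0.21 and −0.09. All-gene medians were −0.02 to −0.06, as given above. Of all genes, 41.9, 41.3, 42.2 and 44.4% were above the control at days 35, 45, 55 and 70, so most genes lay below it too. Gpr17, a receptor of cells committed to become oligodendrocytes, differed by 0.06, 0.12, −0.72, −0.38 and −0.47. Sox6, a factor that holds precursors back from maturing, was −0.88 from the control at day 45, and Hes5, a Notch target that neural stem cells and astrocytes also use, was −0.90 from it at day 21. Pdgfra, the growth factor receptor that marks precursors, differed by 0.033, −0.113, −0.049, −0.124 and −0.088 at the 5 days.

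**Figure D4:**
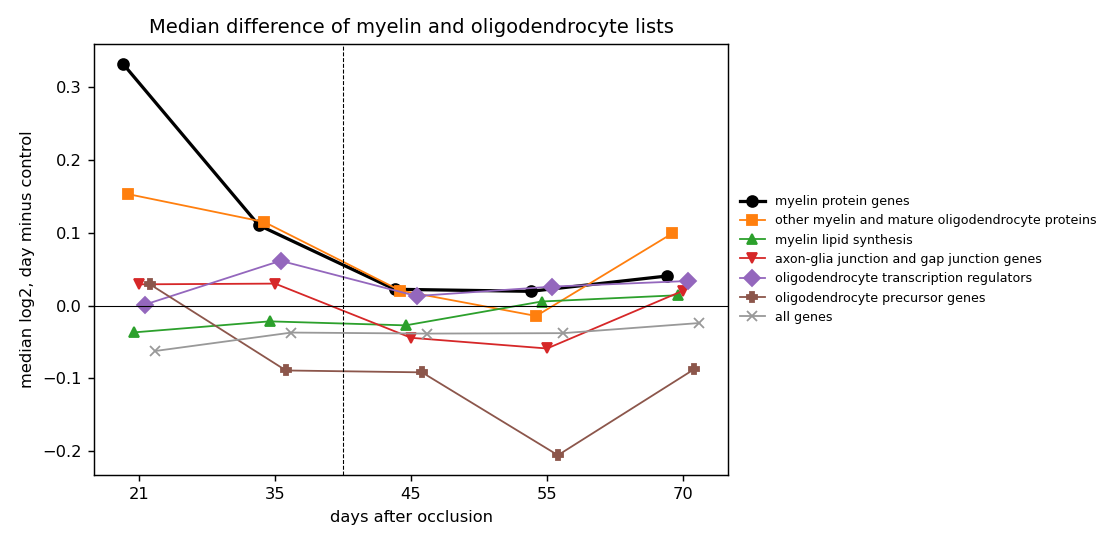
Median difference from the control, in log2 units on the vertical axis, for the myelin protein genes, 5 lists of the oligodendrocyte lineage and all genes, at each day after occlusion on the horizontal axis, with a dashed line between the 2 slides. Small sideways shifts separate the marks. The myelin protein genes have the highest median at day 21, 0.33, and the precursor genes the lowest at day 55, −0.21.

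Markers of microglia, meninges and choroid plexus stood higher at day 21 too, and by more. All 14 microglia genes were above the control, with a median of 1.65, and the mean scaled log2 level of the list was 1.67 on the day 21 array against 0.11 on the control array and 0.07 to 0.19 on the others. All 11 measured genes of meninges and arachnoid were above the control, with a median of 1.35, and all 6 measured choroid plexus genes, with a median of 1.01. Astrocyte genes had a median of 0.22 and thalamus genes of 0.25, while 11 of 12 neuron genes were below the control, with a median of −0.18. Of all genes, 40.1% were above the control at day 21. The part of these cells and tissues in the day 21 values of the myelin protein genes was not tested. All microglia, astrocyte and neuron genes listed were well above background on all 6 arrays. For the choroid plexus, 1 of 12 genes lacked a signal well above background on the day 21 array, and 5 did on the control array. Cd68, a lysosomal protein of phagocytes, stood 3.93 above the control, Col3a1, a fibrous collagen, 2.31 and Gfap, the astrocyte filament protein, 1.02.

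At day 35 the median of the choroid plexus genes was 0.62, of the thalamus genes 0.22 and of the microglia genes −0.02. At day 70, when both Ermn probes were high, the median of the choroid plexus genes was 1.01 and that of the microglia genes 0.07. At day 55, when Mal was high, these medians were −0.05 and 0.05. The choroid plexus genes measured numbered 6 at day 21, 7 at day 35, 5 at day 55 and 7 at day 70, so their medians are not of a single gene set. A link with Ermn or Mal was not tested. Prx, a Schwann cell protein, was well above background on 3 of 6 arrays. Pmp2, a fatty acid binding protein of peripheral myelin that astrocytes can also make, was well above background on 5 of 6 arrays. It was 1.497 above the control at day 21, from a dim control level of −5.85 on the scaled log2 scale. That value is of the counted probe of 2.

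The promoter windows of the members, from 250 bases before to 50 after the start of the gene, were taken from RefSeq in assembly GRCr8 and searched on both strands for short motifs. Mag, Cldn11, Ugt8, Mal, Mobp and Cnp had 1 window each and Mbp had 2, 8 windows for 7 genes, and Mog and Ermn were not analysed here. The Sox motif ACAAAG was in 4 of the 8 windows, those of Mag, Mobp and Cnp and 1 of Mbp, against 18.8% of 33469 windows of all genes. The Myrf motif CTGGCAC was in 3, of Mag, Mal and Cnp, against 4.75% of all windows. The GC box GGGCGG was in 6 windows (33.1% of all), the E-box CAGCTG in 2 (15.1%), the second Sox motif ACAATG in 1 (13.2%) and TATAAA in none (14.2%). Apart from Mobp, at 44.3%, the member windows were 58.3 to 79.3% G and C, against a median of 51.7% over all windows. The shares were not adjusted for base composition, which bears on the GC box above all. A match is a run of letters and not evidence of binding. These stretches are printed because they hold the Sox motif of Mobp, 8 times, and the Myrf motif of the others. Capitals mark ACAAAG and CTGGCAC or their reverse complements. They are read 5′ to 3′ along the gene and lie at chr8:128746982-128747117 on the plus strand for Mobp, chr1:95291129-95291204 on the minus strand for Mag, chr10:86011294-86011393 on the plus strand for Cnp and chr3:135341524-135341563 on the minus strand for Mal.
Mobp promoter: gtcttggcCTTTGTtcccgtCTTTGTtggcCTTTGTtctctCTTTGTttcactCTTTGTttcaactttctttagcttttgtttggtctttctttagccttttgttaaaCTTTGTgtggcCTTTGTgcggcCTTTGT
Mag promoter: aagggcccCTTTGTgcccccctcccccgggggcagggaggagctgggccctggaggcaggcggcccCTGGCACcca
Cnp promoter: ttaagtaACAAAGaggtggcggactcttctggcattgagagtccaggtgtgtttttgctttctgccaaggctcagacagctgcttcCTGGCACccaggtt
Mal promoter: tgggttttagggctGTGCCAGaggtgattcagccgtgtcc

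The members that hold the same motif did not share a time course. Mag, Mal and Cnp, with the Myrf motif, differed from the control by 0.39, 0.74 and −0.24 at day 21 and by 0.02, 0.49 and −0.49 at day 55.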

How the data were processed

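The authors deposited 1 scanner file per array, read with Agilent Feature Extraction 10.7.3.1, per the file headers. Its intensity values are processed signals, background-subtracted and detrended within the array, per the file headers, and not scaled between arrays. Cy5 is the dye in the labels, but the deposited files hold green-channel columns only, and these were used. The authors' deposited value table, for 41507 of 42877 non-control spots, has near-equal quantiles on all arrays. Its making is not stated in those sources, and it was tried as an alternative.

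Outlier spots, 346 to 470 per array, were left out and saturated spots kept. The log2 intensity was scaled by subtracting the array's 75th percentile, and spots of 1 probe were averaged (Python 3.11.15, pandas 2.3.3, numpy 2.4.6). Between 74.5 and 80.2% of spots were well above background. Through a RefSeq table of assembly GRCr8, 17328 probes were named by accession, 2632 by symbol and 717 by synonym, and 9690 had no name used. Probe positions are in build rn4, per the file headers. A gene was represented by its brightest probe not saturated on every array. Genes were counted in a comparison if their probe was well above background, was not saturated and had a value on both arrays.

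With 1 array per group, no test was made. The steps were tested on simulated data. The members and lists were chosen with earlier results of these data known. Genes named are the 9 members, the 2 highest and 2 lowest of each list at any day, lineage and cell type markers, and the 10 genes most alike to the members' mean profile. Some genes that this rule picks are not reported here, but they stay in the counts and medians of their lists. Klk6, Fa2h, Cd9, Cadm1 and Bcas1 were named after their values were seen. Alternatives were normexp background correction (limma 3.58.1, R 4.3.3, offset 50), quantile, median or no scaling, the authors' table, spot medians, outliers kept, saturated spots left out, another percentile base, all probes averaged and another baseline. Leaving out Mbp was added after seeing the data.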

Additional observations from a re-analysis of the deposited data

How the results depend on the processing

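No difference of a member past 1.3-fold turned its sign under any of the 10 alternatives that kept the control as baseline. Several of these could not have turned it. The counted probes past the mark were printed once and unsaturated, so spot medians, kept outliers and left-out saturated spots returned the same values. Averaging changes only genes with more than 1 probe. Mobp at day 45 was −0.425 on the counted probe but 0.194 and 0.160 on its other probes. The count of members past 1.3-fold at day 21, 5, was 3 with normexp or with scaling to the median, and 2 with no scaling, with the authors' deposited table or with all probes of a gene averaged. At day 35 it was 2 with no scaling and 1 against the mean of the other 5 arrays, in place of 0. At day 45 it was 1, in place of 2, with scaling to the median or with all probes averaged. At day 70 it was 0, in place of 1, with quantile, median or no scaling, the authors' deposited table, all probes averaged, the mean of the other 5 arrays, or Mbp left out. At 2-fold it was 0 at days 21, 45, 55 and 70. The median difference with no scaling was 0.25 at day 21, 0.31 at day 35 and 0.12 at day 70, where the median of all genes also moved, to −0.14, 0.16 and 0.06. Scaled to the median it was 0.14 at day 45, 0.10 at day 55 and 0.14 at day 70. With all probes averaged it was 0.031 at day 35, and against the other 5 arrays −0.059 at day 70. The median pairwise correlation was 0.14 with each slide centred, in place of 0.26. The cause of these shifts was not tested, beyond what each setting changes by its construction. Mal at day 21 lay between 0.66 and 0.77, Mbp at day 21 between −0.645 and −0.465 with probes not averaged, and Mobp at day 45 between −0.44 and −0.02, the last with its 3 probes averaged. For Mbp the average takes in the saturated probe, which pulls the value towards 0 by construction, so the counts with all probes averaged at days 21 and 70 are no measure of that gene. Without Mbp the day 21 median was 0.36. No paired analysis was possible because each group had 1 array. Saturation of 1 of 2 Mbp probes limits what can be said of that gene.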

Other observations

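The mean profile of the 9 members was set against every other gene that was well above background and unsaturated on all 6 arrays and ranged over at least 0.3 log2 units, 7978 genes in all. The mean scaled log2 level was 0.72 for the control and 0.94, 0.82, 0.66, 0.68 and 0.70 for days 21, 35, 45, 55 and 70. The 10 most alike genes, with correlations of 0.971 to 0.996 over 6 arrays on 2 slides, were Agps, Siglec5, C8h11orf54, Slc43a3, Nr1i2, Septin11, Tmsb10, Tmco4, Mrpl21 and Pdia4. Agps encodes an enzyme of ether lipid synthesis in peroxisomes, a pathway that makes plasmalogens, and it differed from the control by 0.64, 0.27, −0.13, −0.07 and −0.02 over the 5 days. None of the 10 is on a list of oligodendrocyte genes used here. With so few arrays, 9.44% of the 7978 genes had a correlation above 0.8, so a high value is common and is given with no p-value.

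Among 20 other myelin and mature oligodendrocyte genes that could be ranked, 4 had a correlation above 0.8 with the mean profile. Of these 20, 14 were above 0, the median was 0.38 and the lowest was −0.605. Over the 7978 genes the median was 0.105. The genes named next are from the high end. Klk6, a protease that oligodendrocytes secrete, stood at 0.91 and Cd9, a tetraspanin, at 0.90, and their day 21 differences from the control were 0.66 and 0.63. Bcas1, a protein of myelinating cells, stood at 0.84. Cadm1, an adhesion molecule of the junction list, stood at 0.92 with a day 21 difference of 0.17. Of 9 junction genes ranked, 7 were above 0, the median was 0.40 and the lowest was −0.855.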
